A study of Homo sapiens with 4 samples.

Results

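The regions described here are m6A peaks that lay within 1 exon and that the authors annotated simply as Exon, meaning that they were assigned to no untranslated region (UTR), start codon or stop codon. A peak was taken when its annotation was Exon and its end minus its start equalled its listed width, so that no intron lay inside it, and repeated rows were counted as 1 peak. The rule found 3056 of 19929 peaks (15.3%, exact 95% interval 14.8 to 15.8%) in the list from cells treated with meclofenamic acid (MA) and 3564 of 22067 peaks (16.2%, 15.7 to 16.6%) in the list from control cells (NC). These are called single-exon Exon peaks below.

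The cells were OMM2.3, a human uveal melanoma cell line labelled as genotype wt. MA cells had meclofenamic acid for 24 h and NC cells had DMSO, the solvent, for 24 h; the dose is not given in the sources used here. Each condition had 1 input library and 1 immunoprecipitated (RIP) library from fragmented poly(A) RNA bound to beads carrying an m6A antibody. No group had a replicate, so no test between conditions was possible, and each difference given is one between these 4 libraries. The exact intervals cover counting error only, and peaks of 1 library share that library, so the intervals do not cover variation between cultures.

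N6-methyladenosine (m6A) is the most common internal modification of messenger RNA. It is written by a nuclear complex around METTL3 and METTL14, removed by FTO and ALKBH5, and bound by reader proteins such as those with a YTH domain. It is known for its concentration near stop codons, in 3′ UTRs and in unusually long internal exons, where there is room far from the exon junction complexes that keep methylation away from splice sites. The drug, a nonsteroidal anti-inflammatory agent, also inhibits FTO, and the design sets the m6A peaks of treated cells against those of solvent-treated cells.

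All single-exon Exon peaks were assigned to protein-coding genes. They lay in 1927 genes in MA and 2191 genes in NC, with 1347 genes in both lists and 2771 in either. Of these 2771 genes, 2746 were in the input table, which gives the level of a gene in FPKM (fragments scaled to gene length and library size), and 25 were not. The input totals behind the FPKM scale, recovered from the values, were 41630895 in MA and 37041597 in NC. All 9 melanocyte and uveal melanoma markers reached 1 FPKM in at least 1 input, with a summed level of 3477 FPKM in MA cells and 7893 in NC cells. Of the markers of other cell types, the fibroblast gene LUM alone did so, and its list summed to 12.3 FPKM in MA cells and 5.20 in NC cells. No marker of immune cells, endothelium or epithelium reached 1 FPKM, and the part of the LUM signal in any result was not tested.

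The peaks had a median width of 251 bases in each list. The middle of the distribution ran from 198.75 to 450.0 bases in MA and from 199 to 450.0 bases in NC. The narrowest had 141 bases in either list, and the widest had 4698 bases in MA and 2600 in NC. They covered 1.17 Mb in MA and 1.33 Mb in NC. Over all peaks the median width was 300 bases in MA and 299 in NC. For 5′ UTR peaks within 1 exon it was 242 bases in MA and 201 in NC. For 3′ UTR peaks within 1 exon it was 298 and 251, and for stop codon peaks within 1 exon 351 and 349. Within its own list, the authors' fold enrichment of RIP over input had a median of 3.50 for single-exon Exon peaks, 2.60 for Exon peaks over several exons and 3.07 for all peaks in MA. In the NC list these medians were 4.00, 3.00 and 3.57. A high fold was not particular to these peaks among those within 1 exon. Stop codon peaks within 1 exon had higher medians, 3.67 in MA and 4.26 in NC. For 3′ UTR peaks within 1 exon they were 3.20 in MA and 3.71 in NC, and for 5′ UTR peaks 3.20 and 3.50. Folds were not compared between the lists. Every listed peak had a fold of at least 1.5. A fold written as a whole number was listed for 27.1% of single-exon Exon peaks in MA, against 19.8% of all MA peaks, and for 38.7% in NC, against 27.8% of all NC peaks. Within 1 exon, this share in MA was 26.5% for stop codon, 26.2% for 5′ UTR and 21.8% for 3′ UTR peaks. In NC these shares were 32.2%, 33.6% and 30.2%. The rule has no graded threshold on a measured value, but Exon peaks just outside it exist: the smallest difference between span and width among Exon peaks over several exons was 2 bases in both lists, and it was under 100 bases for 41 such peaks in MA and 48 in NC.

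Most genes held 1 such peak, and a small number of genes held many. Of the host genes, 1335 had 1 peak, 349 had 2 and 243 had 3 or more in MA, and 1483, 421 and 287 did so in NC. There were 61 genes with 5 or more in MA and 88 in NC. In NC the highest number was 21, in AHNAK2, which had 17 in MA. Peaks of the same gene formed 1120 neighbouring pairs in MA and 1360 in NC. The median gap between neighbours was 249 bases in each list and the smallest was 97 bases. Gaps of 100 bases or less made up 27.8% of the pairs in MA and 25.9% in NC.

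AHNAK and AHNAK2 encode giant scaffold proteins, each read largely from 1 very long coding exon. AHNAK held 7 peaks covering 15749 bases in MA and 10 peaks covering 14704 bases in NC, between chr11:62516803 and 62533295 on the minus strand of GRCh38.p13. The bases present in both lists were 14306, which is 90.8% of the MA bases and 97.3% of the NC bases. AHNAK thus had fewer peaks in MA over slightly more bases. Its input level was 28.8 FPKM in MA cells and 27.3 in NC cells. The longest single-exon Exon peak of either list was in AHNAK, at chr11:62517903-62522600 in MA, with 4698 bases, a fold of 3.96 and 2 overlapping NC peaks. The longest in NC was also in AHNAK, at chr11:62526148-62528747, with 2600 bases, a fold of 3.87 and 3 overlapping MA peaks. AHNAK2, at a level of 4.58 FPKM in MA cells and 7.61 in NC cells, held 17 peaks covering 5215 bases in MA and 21 covering 8468 bases in NC. Here 3969 bases were in both lists, 76.1% of those in MA and 46.9% of those in NC.

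**Figure D1:**
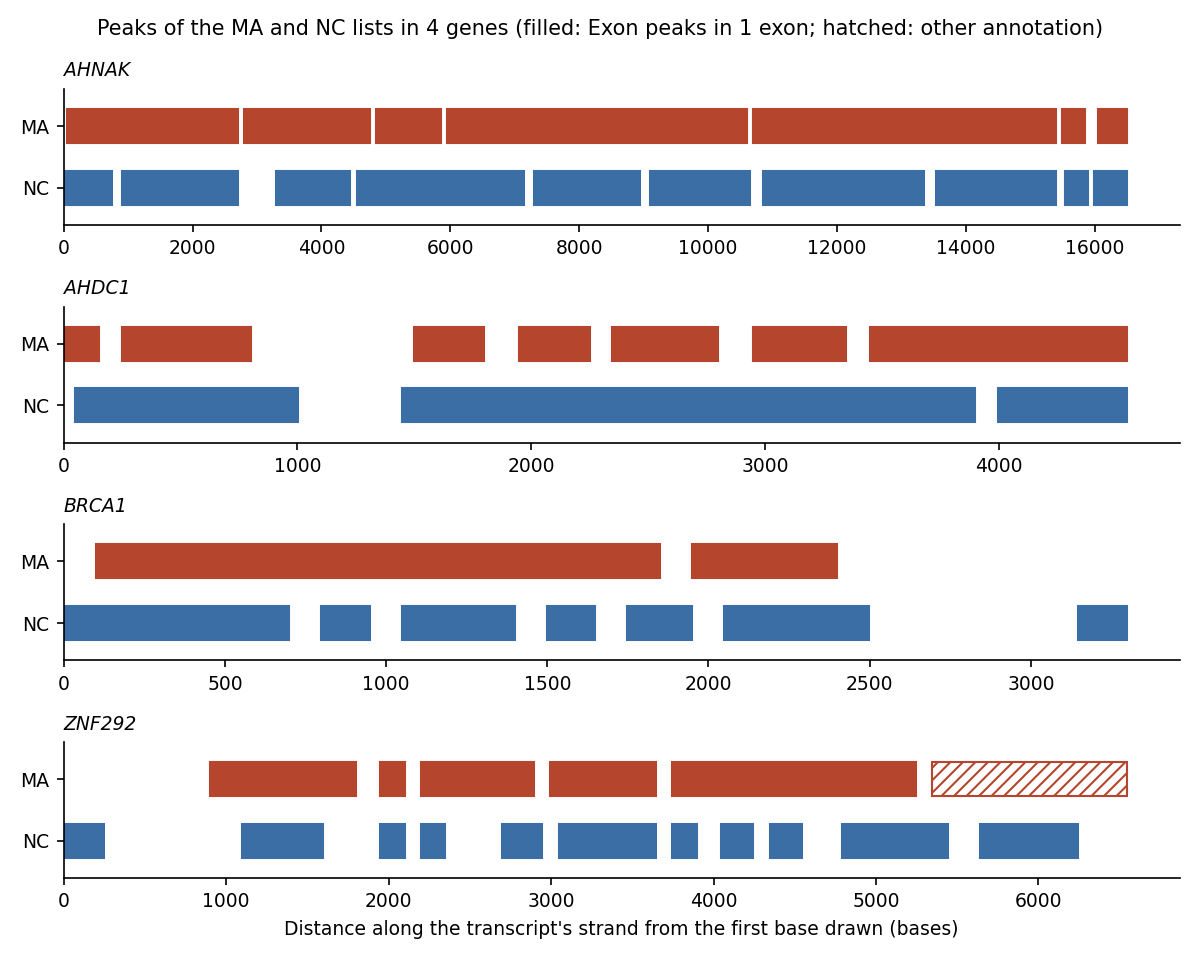
Peaks within 1 exon in AHNAK, AHDC1, BRCA1 and ZNF292, drawn along the transcript's strand as distance in bases from the first base drawn, with the MA list above the NC list; filled bars are single-exon Exon peaks and hatched bars are peaks with another annotation. In BRCA1 a MA peak of 1749 bases overlaps 5 NC peaks, and in AHDC1 a NC peak of 2449 bases overlaps 5 MA peaks.

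The other genes with the most peaks were of several kinds. ZFHX3, a transcription factor with homeodomains and zinc fingers, held 14 peaks over 3455 bases in MA and 16 over 5656 bases in NC, at 2.82 FPKM in MA cells and 1.45 in NC cells. ZFHX3 therefore had a similar number of single-exon Exon peaks but fewer bases covered by them in MA, where its input level was higher. These bases leave out peaks of other classes, of which ZFHX3 had 5 in MA and 2 in NC. An overlapping peak of some kind in the other list was found for 13 of its 14 MA peaks and 14 of its 16 NC peaks. PCLO, the presynaptic scaffold piccolo, held 12 peaks over 4206 bases in MA and 7 over 1555 bases in NC, at 5.10 FPKM in MA cells and 6.21 in NC cells. In PCLO 5 of the 12 MA peaks had a NC partner, meaning an overlapping peak of the other list, and all 7 NC peaks had a MA partner. HIVEP1, a zinc finger transcription factor, had 10 peaks in MA and 9 in NC. STARD9, a kinesin, likewise had 10 in MA and 9 in NC, ZNF407 had 11 and 8, and CRYBG3 had 9 and 8. FLG had 7 peaks in MA and 11 in NC.

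An overlapping peak of any kind in the other list, on the same strand and by at least 1 base of its span, was found for 2452 of 3056 single-exon Exon peaks in MA (80.2%, exact 95% interval 78.8 to 81.6%) and for 2815 of 3564 in NC (79.0%, 77.6 to 80.3%). Over all peaks this share was 79.7% in the MA list and 73.8% in the NC list. In MA the single-exon Exon peaks were therefore near the share of all peaks, and in NC they were above it. Exon peaks over several exons had a partner in 75.8% in MA and 73.6% in NC, and peaks of the other annotations within 1 exon in 78.5% in MA and 69.4% in NC. The span of a partner over several exons includes introns. When the partner itself had to lie within 1 exon, 66.4% of the peaks in MA and 59.5% in NC had one, an alternative chosen after seeing the data. That share was not computed over all peaks.

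The partner was often listed differently. The 294 MA peaks and 289 NC peaks with 2 or more partners were counted once, under the first class that applied in the order given here. It was itself a single-exon Exon peak for 59.7% of the MA peaks (57.9 to 61.4%) and 52.7% of the NC peaks (51.0 to 54.3%). It was an Exon peak over several exons for 9.42% of the MA peaks and 12.99% of the NC peaks. A 3′ UTR peak was the partner for 6.05% in MA and 6.54% in NC, and a 5′ UTR peak for 3.30% in MA and 4.88% in NC. Start and stop codon peaks were partners for 0.982% and 0.785% of the MA peaks and for 1.01% and 0.870% of the NC peaks. No partner of any kind was found for 604 peaks in MA (19.8%) and 749 in NC (21.0%). A gene that holds such a peak in a single list can thus have an overlapping peak of another class in the other list.

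**Figure D2:**
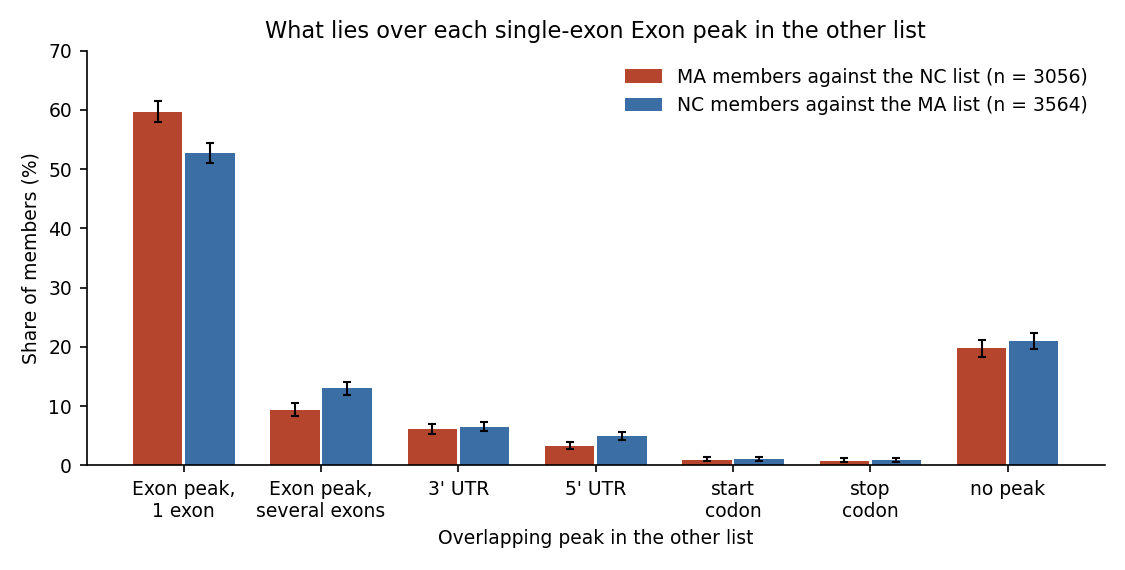
Share of single-exon Exon peaks, in percent, by the kind of peak that overlaps them in the other list, for the 3056 MA peaks against the NC list and the 3564 NC peaks against the MA list; bars are shares and whiskers are exact 95% intervals for counting error. A peak with several partners is counted once, under the leftmost class that applies. The partner is another single-exon Exon peak for 59.7% of the MA peaks and 52.7% of the NC peaks, and 19.8% and 21.0% have no partner.

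Peaks with a partner were wider than those without. A partner needs 1 shared base, which a wider peak can meet more easily, and the part of this in the widths was not tested. In MA the median width was 300.0 bases with a partner and 197.5 bases without, and the median fold within that list was 3.56 and 3.00. In NC the widths were 301 and 199 bases and the folds 4.35 and 3.50. Their genes also differed in level. The host gene's median level per MA peak was 4.82 FPKM in MA cells and 4.19 in NC cells for peaks with a partner, and 2.63 in MA and 1.40 in NC for peaks without. Per NC peak it was 5.22 FPKM in MA cells and 3.40 in NC cells with a partner, and 2.47 in MA and 2.18 in NC without. Whole-number folds were listed for 44.4% of the MA peaks without a partner and 22.8% of those with one, and for 53.5% and 34.7% of the NC peaks.

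In other cases a single-exon Exon peak of one list met exactly 1 of the other, and neither met any other peak. The median width of these pairs was the same in both lists, but the 2 widths of a pair mostly differed. There were 1208 such pairs, with a median width of 300.0 bases in MA and 300.0 bases in NC. The MA peak was wider in 500 pairs, the NC peak was wider in 475, and 233 were within 5 bases of the same width. The 5′ ends and the 3′ ends were each a median of 50 bases apart, and they lay within 5 bases in 28.9% and 29.6% of the pairs. Identical positions were listed for 126 peaks, 4.12% of those in MA and 3.54% of those in NC.

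Other peaks were joined in one list and divided in the other. A single NC peak overlapped 2 or more MA single-exon Exon peaks in 234 cases, and a single MA peak overlapped 2 or more NC ones in 330 cases. In KMT2A, a histone H3 lysine methyltransferase, 5 NC peaks overlapped 1 MA peak of 3501 bases at chr11:118502422-118505922, with a fold of 5.85. KMT2A in all held 4 peaks over 5404 bases in MA and 9 over 4709 bases in NC, at 8.38 FPKM in MA cells and 5.52 in NC cells. In BRCA1, a tumour suppressor of homologous recombination, 5 NC peaks overlapped a MA peak of 1749 bases at chr17:43092935-43094683. BRCA1 held 2 peaks over 2199 bases in MA and 7 over 2154 bases in NC, at 15.9 FPKM in MA cells and 5.10 in NC cells. The number of peaks thus differed in BRCA1 while the covered bases were nearly equal.

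The division also ran the other way. In AHDC1, a DNA-binding protein with AT-hook motifs, 5 MA peaks overlapped 1 NC peak of 2449 bases at chr1:27547972-27550420, at 4.79 FPKM in MA cells and 4.39 in NC cells. In SPEN, a transcriptional repressor, 4 MA peaks overlapped a NC peak of 1699 bases, and in SLX4, a scaffold for structure-specific nucleases, 4 overlapped a NC Exon peak over several exons.

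The single-exon Exon peaks lay in longer genes of lower level than the rest. Of the 2449 host genes that reached 1 FPKM in one of the inputs, the median level was 5.99 FPKM in MA cells and 4.52 in NC cells and the median recovered length 4861 bases. Over all 10564 genes that reached it, called the genes tested, these medians were 10.4 and 8.84 FPKM and 3488.5 bases. Of the genes tested, a peak was held by 1719 in MA (16.3%) and 1943 in NC (18.4%). Genes were split into 5 groups of equal size by mean input level. The share holding a peak ran from the lowest group to the highest as 27.1%, 22.1%, 16.3%, 11.1% and 4.83% in MA, and as 30.7%, 25.7%, 17.5%, 12.2% and 5.92% in NC. A peak of any kind was held by 78.3% of the genes in MA and 80.7% in NC in the lowest group, and by 65.1% in MA and 70.8% in NC in the highest. Split into 3 groups by recovered length, the shares holding a single-exon Exon peak from the shortest to the longest group were 8.97%, 14.4% and 25.4% in MA and 9.57%, 16.8% and 28.8% in NC. The recovered length is a lower bound, since a gene can be resolved to a whole fraction of its length. The order by length was also present within groups of like level. In the lowest group by level the 3 shares were 19.8%, 25.2% and 31.8% in MA and 21.6%, 32.6% and 33.8% in NC. In the highest group by level they were 3.55%, 5.07% and 11.1% in MA and 3.63%, 7.36% and 14.5% in NC.

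**Figure D3:**
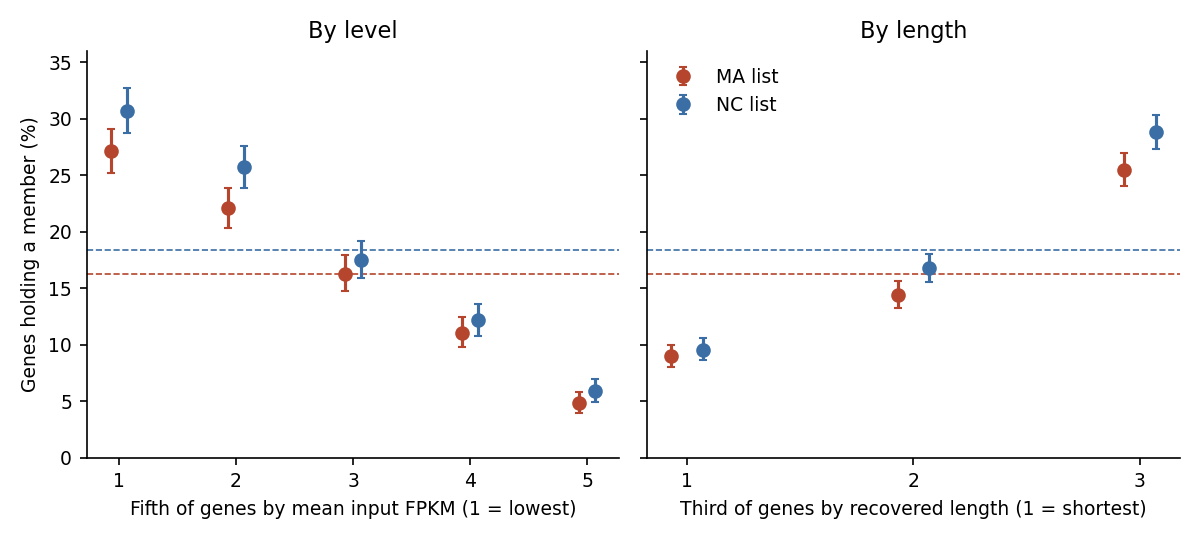
Share of tested genes, in percent, that hold at least 1 single-exon Exon peak, for 5 groups by mean input FPKM (left) and 3 groups by recovered gene length (right), with MA left of NC at each position; points are shares, whiskers exact 95% intervals for counting error, and dashed lines the shares over all genes tested (16.3% in MA and 18.4% in NC). In MA the share is 27.1% in the lowest group by level and 4.83% in the highest, and in NC 30.7% and 5.92%.

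A 3′ UTR peak was also present in 56.7% of the host genes in MA (exact 95% interval 54.5 to 58.9%) and in 58.1% in NC (56.0 to 60.2%), against 70.4% in MA and 70.1% in NC of the genes that had other peaks only. A 5′ UTR peak was present in 26.1% of the host genes in MA and 25.8% in NC, against 29.0% and 29.9% of the genes with other peaks only. Exon peaks over several exons occurred in 28.0% of the host genes in MA and 29.3% in NC. In the genes with other peaks only these shares were 29.9% and 29.7%. No further peak was listed in 431 host genes in MA and 438 in NC, and these genes lower every share of the host genes. Each gene with other peaks only holds a peak of another class by definition. The shares therefore cannot show whether host genes differ from these genes in any class. Shares among host genes with a further peak were not computed.

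Lists of genes were examined for how many of their tested members held a peak, to be read against the 16.3% in MA and 18.4% in NC of all genes tested. Of 55 genes known for a large coding exon, 38 held a peak in MA (69.1%) and 48 in NC (87.3%), with 177 and 253 peaks. The rule keeps peaks within 1 exon and so itself favours genes with a large coding exon. Their input levels also differed, with a median log2 difference, log2((MA FPKM + 1)/(NC FPKM + 1)), of 0.64 against 0.11 over all genes tested. Chromatin regulators held a peak in 23 of 47 in MA (48.9%) and 27 of 47 in NC (57.4%). Genes of genome stability did so in 11 of 26 in MA (42.3%) and 14 of 26 in NC (53.8%), and their median log2 difference was 0.95. The lists overlap, since BRCA1, BRCA2, TP53BP1, RIF1, MDC1 and REV3L are among those in both the large-exon list and the genome-stability list.

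**Figure D4:**
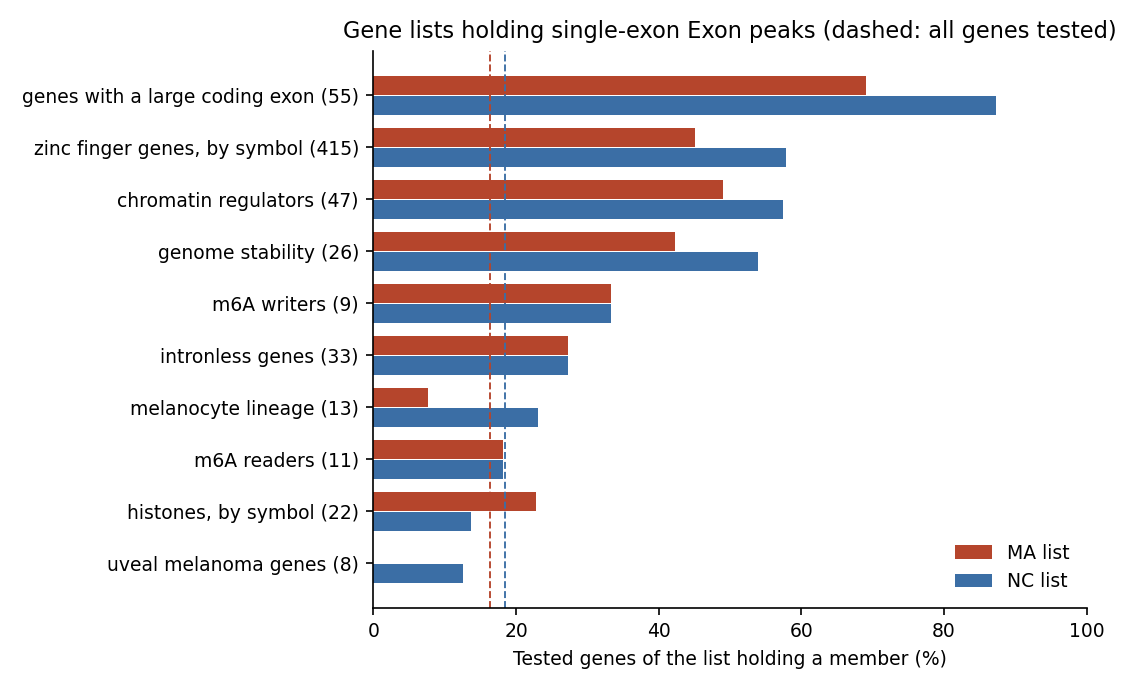
Share of tested genes in each of 10 lists, in percent, that hold at least 1 single-exon Exon peak, with the MA bar above the NC bar and the number of tested genes in parentheses; dashed lines are the shares over all genes tested. Genes with a large coding exon reach 69.1% in MA and 87.3% in NC, and zinc finger genes 45.1% and 57.8%.

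Among chromatin regulators, KMT2D held 10 peaks over 5154 bases in MA and 5 over 3302 bases in NC, at 8.71 FPKM in MA cells and 12.2 in NC cells. KMT2C, its paralog, held 5 peaks over 3346 bases in MA and 7 over 3249 bases in NC, at 7.76 FPKM in MA cells and 3.86 in NC cells. SETD2, the methyltransferase for lysine 36 of histone H3, held 4 peaks in MA and 5 in NC, at 16.3 FPKM in MA cells and 7.63 in NC cells. Of the genes of genome stability, BRCA2 held 7 peaks in each list, over 3096 bases in MA and 1252 bases in NC, at 3.99 FPKM in MA cells and 0.944 in NC cells. POLQ, a DNA polymerase of end joining, held 4 peaks over 2342 bases in MA and 5 over 951 bases in NC, at 7.00 FPKM in MA cells and 1.88 in NC cells. In BRCA2 and POLQ the MA peaks covered more bases at a higher input level, while in KMT2D they covered more bases at a lower one. The bases counted leave out peaks of other classes. KMT2D had 5 such further peaks in MA and 6 in NC, and 9 of its 10 MA single-exon Exon peaks had a NC partner. The longest of the 10, of 1001 bases, had an Exon peak over several exons as its NC partner.

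Zinc finger genes, taken by symbol (ZNF, ZFP, ZSCAN, ZKSCAN and ZBTB), mostly encode transcription factors whose fingers are arrayed in 1 long final coding exon. A peak was held by 187 of 415 in MA (45.1%) and by 240 of 415 in NC (57.8%). They carried 412 of the 3056 single-exon Exon peaks in MA (exact 95% interval 12.3 to 14.7%) and 499 of the 3564 in NC (12.9 to 15.2%). Among Exon peaks over several exons, genes with these symbols carried 2.48% in MA and 2.61% in NC, and among all peaks 6.41% and 6.38%. Here too the rule itself favours genes with a long coding exon. Chromosome 19, where many of these genes are clustered, held 10.6% of the single-exon Exon peaks in MA and 10.4% in NC, against 6.74% and 7.14% of all peaks. Of the zinc finger peaks, 76.7% in MA and 84.4% in NC had a partner. The median input log2 difference of the 415 genes was 0.50, against 0.11 over all genes tested. At least 2-fold higher in MA were 74 (17.8%, against 10.3% of all genes tested), and at least 2-fold lower were 3 (0.723%, against 2.98%). Many of these genes are close paralogs, so reads can be assigned to the wrong copy and single genes are uncertain. ZNF292 had 5 peaks over 3900 bases in MA and 11 over 3704 bases in NC, at 2.27 FPKM in MA cells and 0.505 in NC cells. All 5 and all 11 had a partner in the other list. ZNF646 had 6 peaks over 4479 bases in MA and 5 over 4181 bases in NC, and ZNF518A had 7 over 2305 bases and 5 over 1052 bases.

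Of the 4 tested protocadherin and cadherin-related genes, all held a peak in both lists. FAT1, an atypical cadherin, held 4 peaks over 5690 bases in MA and 5 over 4742 bases in NC, at 28.3 FPKM in MA cells and 17.8 in NC cells. CELSR3, another atypical cadherin, held 6 peaks in MA and 7 in NC, and PCDH1 held 1 in MA and 4 in NC. PCDHGB1, named by the number of its peaks, was under 1 FPKM in both inputs and had 3 peaks in MA and 0 in NC; its exons are near copies of those of other clustered protocadherins, so its reads are uncertain. Intronless genes held a peak in 9 of 33 in each list (27.3%). FOXC1, a forkhead transcription factor, had 2 peaks in each list, over 798 bases in MA and 799 bases in NC, of which 749 were shared. Histone genes held a peak in 5 of 22 in MA (22.7%) and 3 of 22 in NC (13.6%), and H2BC9 had the same 232 bases listed in both. Poly(A) selection, which these libraries used, recovers replication-dependent histone mRNAs poorly.

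A few genes of the m6A machinery held such peaks. Of 9 writers, 3 held a single-exon Exon peak in MA and 3 in NC (33.3% in each). The shares over all genes tested were 16.3% in MA and 18.4% in NC, and 9 genes are too few to tell the writers from them. RBM15, which recruits the writer complex to RNA, held a MA peak of 2183 bases at chr1:110340022-110342204 with a fold of 7.38. Its partner in NC was an Exon peak over several exons with 2431 exonic bases, so the same region was listed under another class. RBM15 had a further NC peak of 150 bases with no MA partner, and its level was 12.1 FPKM in MA cells and 6.89 in NC cells. RBM15B, its paralog, held a MA peak of 1345 bases, which lay under a NC peak of 2441 bases annotated as 3′ UTR, at 12.4 FPKM in MA cells and 18.6 in NC cells. CBLL1, a subunit of the complex, held a NC peak of 997 bases, which lay under a MA 5′ UTR peak over several exons, at 6.45 FPKM in MA cells and 4.28 in NC cells. VIRMA, the scaffold subunit, held a peak of 251 bases at the same position in both lists, at 26.0 FPKM in MA cells and 8.54 in NC cells. A further NC peak of VIRMA, of 151 bases, overlapped the span of a MA stop codon peak.

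Of the erasers, ALKBH5 held 1 NC peak of 247 bases at chr17:18184371-18184617, with a fold of 2.07 and no MA partner, at nearly equal input levels of 22.9 FPKM in MA cells and 23.4 in NC cells. FTO, the enzyme the drug inhibits, held no single-exon Exon peak in either list. Among 11 tested readers, PRRC2A and YTHDC1 held such peaks in both lists (18.2%, near the shares of all genes tested). PRRC2A had 4 in MA and 2 in NC, and a NC peak of 946 bases lay over 2 of the MA peaks, at 116 FPKM in MA cells and 142 in NC cells. The nuclear reader YTHDC1 had 2 peaks in MA, of 301 and 150 bases, and 1 in NC, of 350.0 bases. These MA and NC peaks shared no base, but the NC peak lay within the span of a MA Exon peak over several exons. The MA peak of 301 bases met the end of a NC Exon peak over several exons, and the one of 150 bases had no partner. YTHDC1 was at 14.6 FPKM in MA cells and 6.36 in NC cells.

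Of 13 melanocyte genes, which define the lineage of these cells, 1 held a peak in MA (7.69%) and 3 in NC (23.1%). Over all genes tested these shares were 16.3% in MA and 18.4% in NC, and 13 genes are too few to tell the list from them. PMEL, the structural protein of melanosomes, held the same 251 bases in both lists at chr12:55957386-55957636, at a level of 1251 FPKM in MA cells and 4027 in NC cells. EDNRB, the endothelin receptor of the lineage, and RAB38, a GTPase of melanosome traffic, each held 1 peak in NC and none in MA. Both had a MA partner of another kind, a start codon peak for EDNRB and an Exon peak over several exons for RAB38. EDNRB was at 32.9 FPKM in MA cells and 85.0 in NC cells, and RAB38 at 12.7 in MA and 36.8 in NC. The list's median input log2 difference was -1.33, against 0.11 over all genes tested, and 8 of the 13 genes (61.5%) were at least 2-fold lower in MA, against 2.98% of all genes tested. Of 8 genes linked to uveal melanoma, PRAME alone held a peak, in NC, and it lay under a MA Exon peak over several exons.

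Peaks in the mitochondrial transcripts, which have no introns, all meet the condition of lying within 1 exon. There were 11 single-exon Exon peaks in MA and 11 in NC, in 9 genes in each list. All 11 in MA and 10 of 11 in NC had a partner. The 2 peaks of ATP6 had identical positions in both lists, with 438 bases. ND5 was covered over 1666 bases by 2 peaks in MA and over 1763 bases by 1 peak in NC. The input table lists none of these genes under the symbols of the peak lists, so no level is given.

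The input levels of the host genes were then compared with those of all 10564 genes tested, of which 10.3% were at least 2-fold higher in MA, 2.98% were at least 2-fold lower, and the median log2 difference was 0.11. Of the 2449 tested host genes of either list, 330 (13.5%) were at least 2-fold higher in MA and 61 (2.49%) at least 2-fold lower, with a median of 0.24. With a pseudocount of 5 the order turned for the higher genes, to 1.63% of the host genes against 2.58% of all genes tested. The 1213 genes with peaks in both lists had a median of 0.24, with 12.0% higher and 1.81% lower. In genes that reached 5 FPKM in one of the inputs this median was 0.053, against 0.050 over all such genes. The 506 genes with peaks in MA only had a median of 0.11, equal to that of all genes tested, with 10.3% higher and 3.75% lower. The 730 genes with peaks in NC only had a median of 0.37, with 18.1% higher and 2.74% lower. The genes whose single-exon Exon peaks were listed in NC only thus had the highest median input difference of these 3 classes.

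The median differed by whether the gene had another kind of peak in the other list. The 646 tested genes with a single-exon Exon peak in NC only and another peak in MA had a median of 0.47, and 20.3% were at least 2-fold higher in MA. The 84 tested genes with such a peak in NC and no MA peak of any kind had a median of -0.17, with 1 gene at least 2-fold higher and 5 at least 2-fold lower. In the opposite direction, the 472 genes with a peak in MA only and another peak in NC had a median of 0.10, and the 34 genes with a peak in MA and no NC peak had one of 0.80. Genes without any peak in the other list were of low level, with medians of 2.28 FPKM in MA cells and 1.20 in NC cells for those marked in MA, and 3.12 in MA and 3.59 in NC for those marked in NC. Of the genes without any peak in the other list, only 34 of 78 marked in MA and 84 of 156 marked in NC were tested. The limit of 1 FPKM can be met in either input, so a low gene can pass only through the input where it was higher. The part of this limit, of sequencing depth and of gene level in these differences was not tested.

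**Figure D5:**
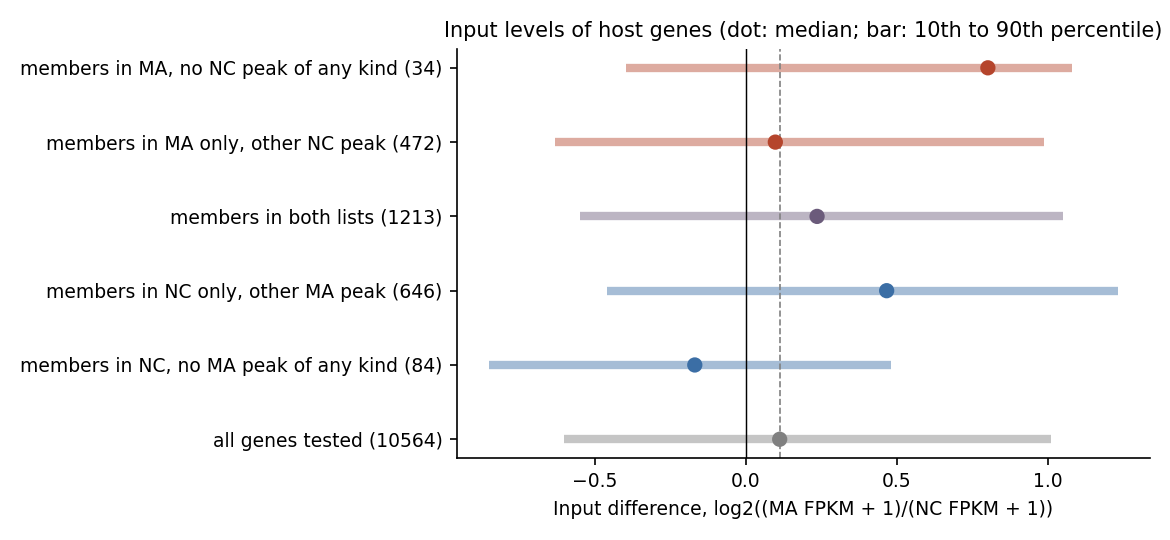
Input log2 difference, log2((MA FPKM + 1)/(NC FPKM + 1)), of genes with single-exon Exon peaks, by the list that holds the peak and by whether the other list holds another peak of the gene, with the number of tested genes in parentheses; dots are medians, bars run from the 10th to the 90th percentile of genes, and the dashed line is the median over all genes tested. Genes marked in NC only with another MA peak have a median of 0.47, and genes marked in NC with no MA peak have -0.17.

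Several of the host genes with the highest input differences showed this change of class. ZNF441, at 11.4 FPKM in MA cells and 0.461 in NC cells, held 2 single-exon Exon peaks in NC, and both lay under 1 MA 3′ UTR peak with 2199 exonic bases. SLC30A1, a zinc exporter, was at 13.5 FPKM in MA cells and 1.22 in NC cells, and its NC peak of 450.0 bases lay under a MA 3′ UTR peak of 850.0 bases. CPEB4, which binds cytoplasmic polyadenylation elements, was at 16.3 FPKM in MA cells and 2.99 in NC cells, and its MA peak of 947 bases met a NC start codon peak. KLF4, a Kruppel-like transcription factor, was at 18.8 FPKM in MA cells and 0.898 in NC cells, a log2 ratio without pseudocount of 4.39 (exact 95% interval 4.10 to 4.69, counting error only). It held 2 MA peaks, of 449 and 250.0 bases, that no NC peak overlapped. ATF3, a stress-induced transcription factor, was at 74.8 FPKM in MA cells and 18.5 in NC cells, and it held 1 peak of 200.0 bases in each list, with 150.0 bases shared. CDH19, a cadherin of the neural crest lineage, was at 14.5 FPKM in MA cells and 2.12 in NC cells and held 1 MA peak without a partner. ZMYM5 and ZNF823 were the others.

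The host genes with the lowest input differences were mostly marked by 1 peak in either list. GALNT3, an enzyme that starts O-glycans, was at 1.85 FPKM in MA cells and 11.8 in NC cells, and it held 1 peak in MA, with a 5′ UTR peak as its NC partner. LZTS1, a leucine zipper protein, was at 18.8 FPKM in MA cells and 80.5 in NC cells, and it held 2 MA peaks with a 3′ UTR peak as the partner of each. CABLES1 was at 34.8 FPKM in MA cells and 136 in NC cells, and its NC peak of 300.0 bases had a MA 5′ UTR partner. PLXNA1, a semaphorin receptor, was at 12.99 FPKM in MA cells and 47.3 in NC cells, with 2 NC peaks, 1 of which had a partner. PLEKHH1 and TLNRD1 held 1 peak in each list, and those of PLEKHH1 were the same 151 bases. LDB3, at 1.30 FPKM in MA cells and 8.03 in NC cells, held 1 NC peak of 200.0 bases without a partner.

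The peaks with the highest folds were taken apart by whether they had a partner, in genes whose inputs both reached 5 FPKM. In MA, the highest with a partner were in NPIPB5 (fold 18, 650.0 bases), whose near-identical paralogs make its reads uncertain, and in NCKAP5L at chr12:49795022-49796469 (fold 15, 1448 bases). The next were in ATXN1L (fold 13), ZNF574 (11.8) and RANBP2 (11), a component of the nuclear pore. In NC, the highest with a partner were in PPP1R26 at chr9:135484548-135485347 (fold 27, 800.0 bases), ZBED5 (24) and ICE1 (18), a subunit of the little elongation complex. IQSEC1 (17) and RGS3 (16) followed. All of these had a single-exon Exon peak as partner except that of ATXN1L, whose partner was a 3′ UTR peak.

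Among MA peaks without a NC partner, the highest folds were in PCLO (fold 11, 201 bases), EMC3 (7, 299 bases), YTHDC1 (6.67, 150.0 bases), SARNP (6.5, 148 bases) and MPRIP (6, 200.0 bases). Each of these genes had at least 1 peak elsewhere in the NC list. Of the NC peaks that no MA peak overlapped, those with the highest folds were in PRR12 (fold 15, 349 bases), ACBD6 (11, 448 bases) and LRPAP1 (10, 251 bases). TMEM177 (8, 300.0 bases) and SLBP (7, 200.0 bases), which binds the stem-loop of histone mRNAs, came next, and all 5 genes had at least 2 peaks elsewhere in the MA list. LRPAP1, a chaperone of lipoprotein receptors, was at 27.4 FPKM in MA cells and 70.2 in NC cells.

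Some genes had such a peak in one list and no peak at all in the other. Where both inputs reached 5 FPKM, these were 5 of the 746 genes marked in MA (0.670%) and 32 of the 805 marked in NC (3.98%). Among all genes with any peak at that level, 3.94% of those in the MA list had no NC peak and 8.69% of those in the NC list had no MA peak, and the NC list is the longer one. The 5 marked in MA were IL17RC, RPS21, NDUFA10, MFSD1 and POLE4, with 1 peak each of 151 to 351 bases. RPS21, a ribosomal protein, had 246 bases with a fold of 3 at chr20:62386472-62386717, at 365 FPKM in MA cells and 334 in NC cells. Of the 32 marked in NC, COMMD4 and GLI4 had 2 peaks each, and IAH1, ARHGEF18, P4HA2, USP11, TBP and GSK3A came next with 1 each. COMMD4 had 299 bases with folds of 4 and 7, at 53.3 FPKM in MA cells and 73.7 in NC cells. GSK3A, a kinase of glycogen metabolism, had a NC peak of 249 bases with a fold of 3 at equal input levels, 36.5 FPKM in MA cells and 36.5 in NC cells. P4HA2, a collagen prolyl hydroxylase, was at 14.5 FPKM in MA cells and 5.85 in NC cells, so its input was higher where no peak was listed.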

How the data were processed

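Peak lists from MA and NC cells and a gene table of the inputs were used. The submitters' processing notes name the build GRCh38.p13 and the tools ChIPseeker, deepTools, HISAT, HISAT2 and Trimmomatic, without versions. The authors deposited gene levels as FPKM. Per the file headers, each peak has a position, an exonic width, a fold enrichment (a ratio of RIP over input), a p-value and a false discovery rate, all as deposited by the authors. Not given in the sources used here are the peak caller, its thresholds and whether counting used strand.

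Printed starts are the listed ones plus 1 (1-based). Partners were sought on the same strand over the whole span, since the lists give no exon blocks. Shares have exact Clopper-Pearson 95% intervals, for counting error only. For genes that reached 1 FPKM in one of the inputs, the input difference was log2((MA FPKM + 1)/(NC FPKM + 1)); this scale makes the differences of low genes smaller. The rescaled alternative subtracted the median of these differences.

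Read totals, reads and lengths were recovered from the FPKM values as the smallest whole numbers, which resolved 12764 of 13055 genes above 0 in both inputs (97.8%). At the totals used, 190 lengths equalled a RefSeq gene span (GRCh38.p14 table, used for lengths only), against 114 at the next best. The overlap and recovery steps were tested on simulated data. Intervals of a log2 ratio come from these minimum reads.

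The peaks and the gene lists were chosen with earlier results of these data known. Named genes follow a fixed rule: the 5 highest folds with and without a partner in genes whose inputs both reached 5 FPKM, the 5 longest peaks, the 10 genes with most peaks, up to 8 genes with peaks in a single list, the 8 highest and 8 lowest input differences, and up to 4 per gene list. Results for some named genes are not reported here. No long noncoding RNA of the list fixed for them was in the tables. Python 3.11.15, pandas 2.3.3, numpy 2.4.6, SciPy 1.17.1 and matplotlib 3.10.9 were used.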

Additional observations from a re-analysis of the deposited data

How the results depend on the processing

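No paired analysis was possible because each condition had 1 input and 1 RIP library and no result comes from a test. Stricter limits on the authors' fold or false discovery rate left the numbers of single-exon Exon peaks within 1.5 times, down to 2049 in MA and 2712 in NC at a fold of 3 or more. Requiring end minus start plus 1 to equal the width left 0 in MA and 0 in NC, since the starts count from 0.

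The share with a partner, 80.2% in MA and 79.0% in NC, moved with its definition. It was 40.6% and 35.5% with 50% or more of both peaks, 59.7% and 52.7% with a single-exon Exon partner, and 66.4% and 59.5% with any partner within 1 exon. It was 88.1% and 83.4% in genes whose inputs both reached 5 FPKM. With equal numbers of peaks by the authors' p-value it was 76.2% in MA and 80.4% in NC, so the order of the lists turned. With a fold of 2 or more in both lists it was 80.0% in MA and moved to 77.3% in NC. The share over all peaks was not computed for any of these alternatives. Single-exon Exon peaks can therefore be set against all peaks only under the main definition.

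The median input log2 difference of genes with peaks in both lists moved to 0.12 with a pseudocount of 5, 0.053 for genes that reached 5 FPKM in one of the inputs (0.050 over all such genes), 0.12 after rescaling to a median of 0 and 0.33 as TPM. For genes with peaks in MA only it turned to -0.0022 with that limit, and was 0.00018 after rescaling and 0.20 as TPM. For genes with peaks in NC only it was 0.20 with a pseudocount of 5, 0.25 with no filter, 0.26 after rescaling and 0.50 as TPM, above the other 2 classes in each. The median over all genes was 0.20 as TPM. Host genes at least 2-fold higher in MA numbered 610 with a pseudocount of 0.1 (24.9%, against 17.0% of all genes tested), 40 with one of 5 (1.63%, against 2.58%, so that the order turned) and 218 after rescaling (8.90%, against 7.16%). At least 2-fold lower were 94 (3.84%, against 4.26% of all genes tested), 25 (1.02%, against 1.46%) and 84 (3.43%, against 4.16%). The cause of these changes was not tested. Alternatives on a consensus motif, on the exon blocks of partners and on block numbers were not run, since no genome of the build was used here and the lists hold no blocks.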

Other observations

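Some single-exon Exon peaks lay in genes that were almost not detected in the inputs. Genes under 0.1 FPKM in both inputs held 26 peaks in 16 genes in MA and 40 peaks in 22 genes in NC. Mitochondrial genes aside, a further 14 peaks in 9 genes in MA and 25 peaks in 13 genes in NC lay in genes whose symbols are not listed in the input table, so that their level is unknown. FLG, which encodes filaggrin, a structural protein of the epidermis, was at 0.0207 FPKM in MA and listed at 0 in NC, yet it held 7 peaks over 1556 bases in MA and 11 over 3259 bases in NC. Of these, 6 in MA and 6 in NC had a partner, and 1256 bases were in both lists. HRNR, which encodes hornerin, a relative of filaggrin on the same chromosome, is not listed in the input table and held 5 peaks in MA and 9 in NC. FLG and HRNR are made of long internal repeats, so the placement of their reads is uncertain. HRNR was chosen after its values were seen.

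The MA list repeated 12 rows and the NC list 19 rows of single-exon Exon peaks. In NC, the only single-exon Exon peak of VHL, a tumour suppressor chosen after its values were seen, was listed 18 times. All VHL rows together numbered 36 in MA, for 2 different peaks, and 72 in NC, for 4.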
